A study of Mus musculus with 2 samples.

Results

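The respiratory chain was described through 103 genes of the table, chosen by name alone. They were the 13 mitochondrially encoded protein genes (mt- names) and 90 nuclear genes of the Nduf, Sdh, Uqcr, Cox4 to Cox8 and Atp5 families, out of 17592 genes in all. No measured value entered that choice. Single cells came from the dentate gyrus of C57BL/6 mice, dissociated with papain, sorted as live by exclusion of propidium iodide and sequenced with the 10x Genomics 3′ kit v3. The labels give 1 library from mice of 16 months (old) and 1 from mice of 3 months (young), with no genetic change or treatment, and do not say how many mice entered each. The old library held 1430 cells and the young library 2463, with 7451506 and 16217559 unique molecular identifiers (UMIs, each marking 1 captured transcript end).

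The 2 libraries shared 1401 cell barcodes, including 966 that fell in the same one of the 6 larger cell classes in both. Shared barcodes are taken here as the same cells counted in both libraries. No value below therefore compares the ages, and no test across mice was possible. Values are those of the young library unless the old library is named, and old values are not a replicate. Cell classes were named "-like" from standard markers. The 6 classes with at least 50 young cells were microglia-like (354 cells), astrocyte-like (304), endothelial-like (129), mature oligodendrocyte-like (79), pericyte-like (70) and neuroblast or immature granule neuron-like cells (58, neuroblast-like below). Oligodendrocyte precursor-like (48) and smooth muscle-like cells (14) are given beside them. A further 1315 young and 289 old cells had almost no mitochondrial UMIs, were not named and are described last. Every deposited cell had under 15% mitochondrial UMIs (highest 14.9975%), which limits how high that share can be in any class.

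The respiratory chain passes electrons from NADH through complex I, and from succinate through complex II, by way of coenzyme Q to complex III and then to complex IV, which reduces oxygen. Complexes I, III and IV pump protons, and complex V uses the gradient to make ATP. Mitochondrial DNA encodes some subunits of every complex but II, and all other subunits are made from nuclear genes and imported, so that 2 genomes supply 1 machine. Several nuclear subunits of complex IV exist as isoforms that are used in different tissues. In the brain, neurons are known for high oxidative demand and astrocytes for combining glycolysis with respiration.

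A motif for the transcription factor NRF1, a known regulator of respiratory chain genes, is shown first because it was the promoter feature that the nuclear members held most in excess of other genes. Of 73 nuclear members with a RefSeq promoter (250 bases before to 50 after a start site, build GRCm38.p6), 12 held the NRF1 core GCGCATGC on either strand, or 16.4%, against 5.18% of 12791 genes of the table. The stretches below are the 4 with the highest young counts whose match lies at least 24 bases before the start site, with the core in capitals. Counts for this ranking were summed over all young cells, including those with almost no mitochondrial UMIs.
Atp5g2, membrane ring of complex V, chr15:102671058-102671113, minus strand: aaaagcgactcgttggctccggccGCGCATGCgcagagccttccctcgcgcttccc
Atp5l, subunit g of complex V, chr9:44920951-44920992, minus strand: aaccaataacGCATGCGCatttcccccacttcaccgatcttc
Ndufa6, accessory subunit of complex I, chr15:82354343-82354398, minus strand: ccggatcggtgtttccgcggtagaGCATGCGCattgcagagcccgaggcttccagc
Cox6a1, subunit of complex IV, chr5:115349089-115349144, minus strand: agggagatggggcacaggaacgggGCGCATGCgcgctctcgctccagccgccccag

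The YY1 motif AAGATGGC was held by 13.7% of these members against 4.53% of genes, with Atp5j as the example lying before its start site.
Atp5j, coupling factor 6 of complex V, chr16:84835033-84835088, minus strand: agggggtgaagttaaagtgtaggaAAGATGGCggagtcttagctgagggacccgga
The other motifs were held about as often as in all genes, or less often in the counts. The ETS core CCGGAAGT was held by 6.85% of members against 7.51% of genes, the GC box GGGCGG by 45.2% against 63.3%, TATAAA by 9.59% against 9.53%, and the hypoxia core ACGTG by 23.3% against 27.3%. All motifs were searched on both strands and may overlap one another. A match says only that these letters are present.

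One limit bears on the mitochondrial counts. The 3′ ends of mt-Co1, mt-Co2, mt-Co3, mt-Atp6, mt-Nd3 and mt-Nd4l share at least 50% of their 31-base words with nuclear copies of mitochondrial DNA, as does Atp5g1 with Gm10039 (52.1%). The last 60 bases of the pseudogene Gm28661 (chr1:24614885-24614944, minus strand, GRCm38) read, letter for letter, as chrM:7634-7693 of mt-Co2 on the plus strand, and are printed because counts of such genes depend on how the authors' counting treated the copy.
mt-Co2 and Gm28661: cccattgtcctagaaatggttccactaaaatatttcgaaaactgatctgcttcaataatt
Gm28661 is not among the table's genes, so its reads could not be counted apart, and these 7 members are uncertain to that extent.

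Among the 6 classes, microglia-like cells devoted the smallest share of their transcripts to the chain. Mature oligodendrocyte-like cells devoted the largest share to its mitochondrially encoded part. The 90 nuclear members together made up 1.11% of the UMIs of microglia-like cells (95% interval 1.10 to 1.13). Astrocyte-like cells had 2.55%, pericyte-like cells 2.48%, neuroblast-like cells 2.35%, endothelial-like cells 2.07% and mature oligodendrocyte-like cells 2.06%. The intervals of endothelial-like (2.03 to 2.11) and mature oligodendrocyte-like cells (2.03 to 2.09) overlapped, as did those of astrocyte-like (2.52 to 2.58) and pericyte-like cells (2.42 to 2.54), so neither pair was told apart. Oligodendrocyte precursor-like cells had 2.50% and smooth muscle-like cells 3.26%. The highest of the 6 classes was 2.29 times the lowest (2.25 to 2.33). In summed UMIs deeper cells weigh more, and the order of median cells was another. The median astrocyte-like cell had 1.64%, under the median pericyte-like (2.61%), neuroblast-like (2.23%), mature oligodendrocyte-like (2.08%) and endothelial-like cell (2.02%). The median microglia-like cell was lowest, at 1.05%. The larger of the 2 astrocyte-like clusters described below had a summed share of 2.30%. In the old library microglia-like cells were again lowest, at 1.15%, and pericyte-like (2.62%) and astrocyte-like cells (2.60%) highest. All intervals cover counting error only and not differences between cells or mice.

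The 13 mitochondrially encoded genes followed another order. They made up 10.5% of UMIs in mature oligodendrocyte-like cells (10.5 to 10.6). Astrocyte-like cells had 8.87%, pericyte-like cells 8.08%, endothelial-like cells 7.93%, neuroblast-like cells 7.18% and microglia-like cells 5.49% (5.46 to 5.52). Smooth muscle-like cells had 10.3% and oligodendrocyte precursor-like cells 6.66%. The highest class was 1.92 times the lowest (1.90 to 1.93). Without the members whose 3′ ends are shared, this value was 1.59 and astrocyte-like cells, not mature oligodendrocyte-like cells, were highest.

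The balance of the genomes also differed between classes. Nuclear members gave 24.7% of all respiratory chain UMIs in neuroblast-like cells. Pericyte-like cells had 23.5%, astrocyte-like cells 22.3%, endothelial-like cells 20.7%, microglia-like cells 16.9% and mature oligodendrocyte-like cells 16.4%. Oligodendrocyte precursor-like cells stood at 27.3%, against the 16.4% of their mature counterpart. Of the pair at the low end, microglia-like cells had the lowest nuclear share of UMIs and mature oligodendrocyte-like cells the highest mitochondrial one.

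**Figure D1:**
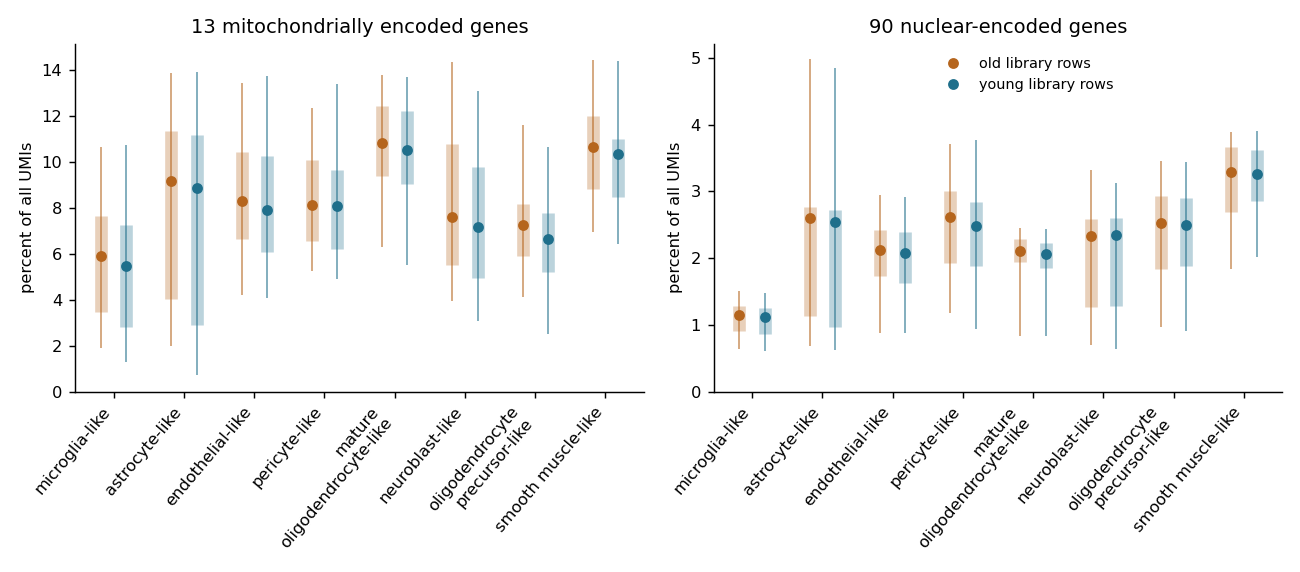
Share of all UMIs taken by the 13 mitochondrially encoded genes (left) and the 90 nuclear-encoded genes (right) in 8 cell classes, in percent. Points are the share of each class's summed UMIs in the old and the young library, thick bars the interquartile range of single cells and thin lines the 5th to 95th percentile of cells. Both libraries hold mostly the same cells. Microglia-like cells lie lowest in both panels, at 5.49% and 1.11% in the young library, and the astrocyte-like cells have the longest spread.

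Within a class the 2 parts did not move as 1. Across single cells the mitochondrial share and the nuclear share of the remaining UMIs had a correlation of 0.58 in mature oligodendrocyte-like cells, 0.32 in astrocyte-like and 0.31 in microglia-like cells. Negative values were found for neuroblast-like (-0.28), pericyte-like (-0.22) and endothelial-like cells (-0.10). These are descriptions over cells of 1 library that share depth, and the nuclear share itself had correlations of 0.33 to 0.76 with log10 of a cell's UMIs in the 6 classes. Astrocyte-like cells were the shallowest, with a median of 1912 UMIs against 7993 in microglia-like cells, so the deeper class of the pair had the lower nuclear share. Cells of 2000 UMIs or more gave 1.12% nuclear UMIs in microglia-like and 2.83% in astrocyte-like cells. Cells under 2000 UMIs gave 0.653% (15 cells) and 1.54% (157 cells). In those shallow cells the mitochondrial order was another. Pericyte-like cells had 10.2% (14 cells), endothelial-like cells 9.20% (34 cells) and neuroblast-like cells 8.85% (7 cells). Microglia-like cells followed with 7.35%, mature oligodendrocyte-like cells with 6.11% (5 cells) and astrocyte-like cells with 5.24%.

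Gene by gene, the lower nuclear level in microglia-like cells was spread over the complexes. Of the 87 nuclear members with at least 20 UMIs over the 6 classes, 71 had their lowest level in microglia-like cells and 0 their highest. Of all 11809 genes that passed the same filter, 26.5% were lowest and 13.8% highest there. The members left out by the filter were Cox7b2, Cox6a2 and Cox8b, all isoforms known from testis or muscle in mammals. The level, in UMIs per 10,000 UMIs of a class, was then set against the median of the other 5 classes after adding 0.1 to both, and at least 2-fold was counted as apart. By that rule 36 of 87 nuclear members (41.4%) were lower in microglia-like cells, against 12.4% of all genes, and 0 were higher, against 11.9%. Their median log2 ratio was -0.86 beside -0.20 for all genes. With a pseudocount of 1 in place of 0.1 the count was 6, against 0.940% of all genes, so the number depends on that choice for genes at these low levels.

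The 5 members furthest below were Ndufb2, Ndufs5, Ndufa5 and Ndufb9, accessory subunits of complex I, and Atp5o-1, named as the stalk subunit OSCP of complex V. Ndufb2 had 0.56 UMIs per 10,000 in microglia-like cells, against 2.78 in pericyte-like, 2.42 in astrocyte-like, 2.40 in neuroblast-like, 1.83 in mature oligodendrocyte-like and 1.53 in endothelial-like cells. The microglial level was thus under that of every other class, at 0.202 of the pericyte-like level (0.150 to 0.274) and 0.368 of the endothelial-like level (0.276 to 0.495). The log2 ratios of the other 4 were -1.59 for Atp5o-1, -1.58 for Ndufs5, -1.51 for Ndufa5 and -1.49 for Ndufb9. The name Atp5o-1 was not found in the GENCODE M21 annotation, which matched the other 102 members.

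Summed by complex, the nuclear subunits of complex I in microglia-like cells stood at 0.397 of the astrocyte-like level (0.386 to 0.409) and 0.521 of the endothelial-like level, the nearest. For complex III the ratios to the 5 classes ran between 0.430 and 0.613, for complex IV between 0.433 and 0.560 and for complex V between 0.454 and 0.608. Complex II, which is wholly nuclear and also belongs to the citric acid cycle, was nearer, at 0.510 to 0.825. Its flavoprotein Sdha had 0.97 UMIs per 10,000 in microglia-like cells against 1.19 in neuroblast-like cells, the lowest of the other 5 classes, its iron-sulfur subunit Sdhb 1.10 against 1.01 to 2.28, and its membrane anchors Sdhc 0.45 against 0.74 to 1.02 and Sdhd 0.57 against 0.54 to 0.90. By these point values, given without intervals, microglia-like cells lay within the range of the other classes for Sdhb and Sdhd and below it for Sdha and Sdhc. Of the mitochondrially encoded sums, complex I genes were the nearest to the other classes, at 0.677 to 0.980, and complex V genes the furthest, at 0.443 to 0.656. Microglia-like cells had the complement genes C1qa and C1qb and immediate early genes such as Fos, Jun and Atf3 among their leading genes, and the part of that state in these values was not tested.

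**Figure D2:**
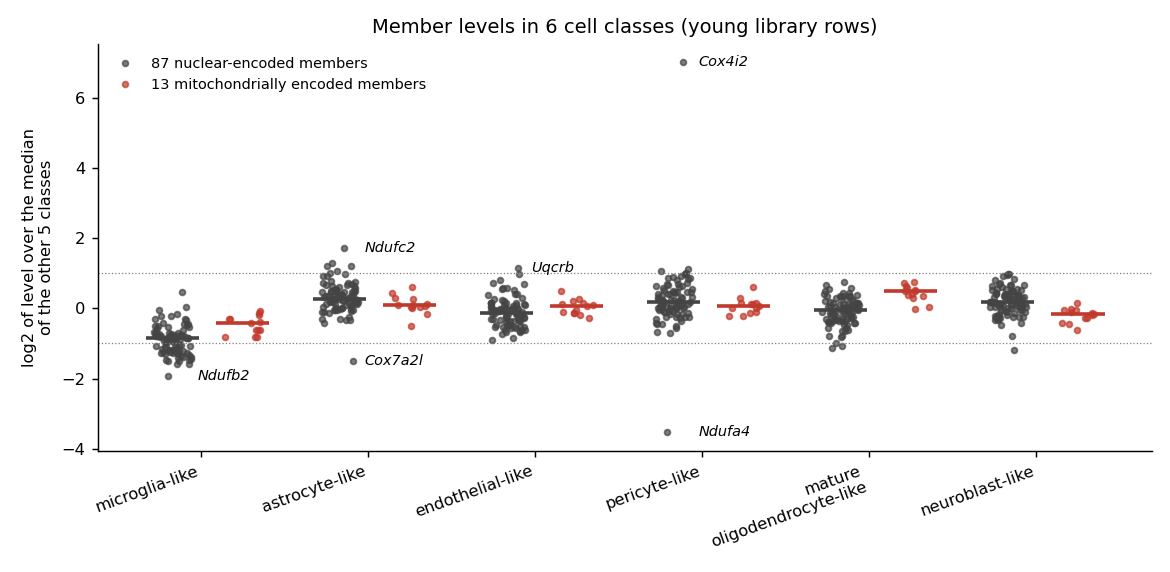
Log2 of the level in each class over the median of the other 5 classes, with 0.1 UMI per 10,000 added, for the 87 nuclear-encoded members (grey) and the 13 mitochondrially encoded members (red) in the young library. Horizontal bars are medians and dotted lines mark a 2-fold difference. The nuclear members of microglia-like cells centre on -0.86, the mitochondrial members of mature oligodendrocyte-like cells on 0.50, and Cox4i2 and Ndufa4 stand apart in pericyte-like cells.

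In the other classes few nuclear members stood apart, and fewer than among all genes. In astrocyte-like cells 5 of 87 were at least 2-fold higher against 17.7% of all genes, and 1 was lower against 4.97%. In endothelial-like cells the counts were 1 against 12.7% and 0 against 6.83%, and in pericyte-like cells 3 against 12.7% and 1 against 6.05%. Of the 3 higher in pericyte-like cells, Cox4i2 (296 of its 303 UMIs there) and Cox7a1 passed the UMI filter only through that class. Both are also within the 46 of 87 given below. In mature oligodendrocyte-like cells 0 were higher against 9.68% and 2 lower against 12.2%, and in neuroblast-like cells 0 higher against 17.2% and 1 lower against 8.25%. Taking any class and direction, 46 of 87 members (52.9%) were apart against 63.4% of all genes, and none of the 13 mitochondrially encoded genes was.

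The astrocyte-like members were Ndufc2, Cox6b2, Ndufs1, Ndufa12 and Ndufaf4 on the high side. Ndufc2, an accessory subunit of the membrane arm of complex I, had 7.87 UMIs per 10,000 in astrocyte-like cells, against 4.64 in neuroblast-like and 1.80 to 2.58 in the other 4 classes. It was 1.70 times the neuroblast-like level (1.45 to 1.99), the nearest, and 4.31 times the microglia-like level (3.84 to 4.83). Ndufs1, the largest iron-sulfur subunit and the least abundant nuclear subunit of complex I by mean level (0.62), had 1.12 against 0.30 to 0.74. Ndufa12 had 2.95 against 0.89 to 1.93, and the assembly factor Ndufaf4 0.80 against 0.22 to 0.69. Cox6b2, known as the testis form of subunit VIb, had 0.42 against 0.01 to 0.34, few UMIs in every class.

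Cox7a2l, a relative of the Cox7a subunits known for joining complexes III and IV, was the low member of astrocyte-like cells. It had 1.26 UMIs per 10,000 there, against 4.93 in neuroblast-like cells, the highest, and 1.84 in mature oligodendrocyte-like cells, the nearest. The low level was that of the larger of the 2 astrocyte-like clusters described below (1.09), while the smaller had 3.42. Its relative Cox7a2 likewise had 3.82 in the larger and 9.36 in the smaller cluster. Within its family Cox7a2l gave 22.5% of the UMIs of Cox7a1, Cox7a2 and Cox7a2l in astrocyte-like cells and 67.5% in microglia-like cells. It was also one of only 2 tested nuclear members above the median of the other classes in microglia-like cells (log2 0.45), and had the least likeness to the nuclear sum over the 6 classes (r = -0.34, 6 points). Cox7a2, the general form, had 4.23 in astrocyte-like cells against 1.79 to 5.51 elsewhere in the 6 classes.

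In endothelial-like cells Uqcrb, a small subunit of complex III, had 4.99 UMIs per 10,000, against 4.41 in pericyte-like, 2.96 in astrocyte-like, 2.19 in mature oligodendrocyte-like, 1.76 in microglia-like and 1.66 in neuroblast-like cells. The ratio to pericyte-like cells was 1.13 (0.893 to 1.44), and that to smooth muscle-like cells 0.966 (0.705 to 1.35) and to oligodendrocyte precursor-like cells 1.19 (0.963 to 1.47), so it was not told apart from these 3 classes. The remaining calls were of assembly factors at low counts. In neuroblast-like cells Ndufaf8 had 0.25 against 0.44 to 0.98, from 11 UMIs. In mature oligodendrocyte-like cells Ndufaf7 had 0.14 against 0.34 to 0.63, and Ndufaf6 had 0 UMIs, which allows 0.0421 per 10,000, against 0.04 to 0.18.

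Pericyte-like cells differed from the other classes in 2 members of complex IV, Cox4i2 and Ndufa4. Subunit IV exists as the general form Cox4i1 and as Cox4i2, which is known in mammals for induction at low oxygen. Cox4i2 had 12.7 UMIs per 10,000 in pericyte-like cells (11.3 to 14.2) and 5.17 in smooth muscle-like cells (3.81 to 6.85). It had 6 UMIs in all astrocyte-like cells, 1 in microglia-like cells and 0 in endothelial-like, mature oligodendrocyte-like, neuroblast-like and oligodendrocyte precursor-like cells. Pericyte-like cells stood 191 times above astrocyte-like cells (86.8 to 525) and at least 194-fold higher than endothelial-like cells, taking 3 counts in that class as the limit of a count of 0. Against smooth muscle-like cells, the other mural class, they stood 2.45 times higher (1.80 to 3.40).

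Cox4i1 was also present in pericyte-like cells. It had 7.19 UMIs per 10,000 in pericyte-like cells, against 9.72 in mature oligodendrocyte-like, 9.70 in astrocyte-like, 8.63 in neuroblast-like cells, 7.54 in endothelial-like cells and 4.97 in microglia-like cells. The pericyte-like level was 0.741 of the astrocyte-like (0.625 to 0.875) and 0.740 of the mature oligodendrocyte-like level (0.622 to 0.878), and not told apart from the endothelial-like level (0.954, 0.788 to 1.15). Cox4i2 gave 63.8% of Cox4 UMIs in pericyte-like cells (59.2 to 68.2), 35.6% in smooth muscle-like cells and 0.68% or less in each of the other 6 classes. The old library gave 63.7% in pericyte-like cells, from nearly the same cells. A Cox4i2 UMI was found in 58 of 70 pericyte-like cells (82.9%) at a median depth of 3206 UMIs, against 1 of 354 microglia-like cells (0.282%) at 7993 UMIs, which is given as the background. Of the 58, 52 also had a Cox4i1 UMI, so both forms were counted in the same cells.

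Ndufa4, now placed in complex IV as its last-bound subunit, was the opposite case. It had 0.43 UMIs per 10,000 in pericyte-like cells, from 10 UMIs, against 7.48 in neuroblast-like, 6.69 in endothelial-like, 6.02 in astrocyte-like, 3.82 in mature oligodendrocyte-like and 2.22 in microglia-like cells. Oligodendrocyte precursor-like cells had 9.61 and smooth muscle-like cells 5.6. Every other class was higher, and the pericyte-like level was 0.0640 of the endothelial-like (0.0304 to 0.119) and 0.0765 of the smooth muscle-like level (0.0347 to 0.152). A Ndufa4 UMI was found in 8 of 70 pericyte-like cells (11.4%), against 106 of 129 endothelial-like cells (82.2%) at nearly the same depth, 3206 and 3237 UMIs.

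Its relative Ndufa4l2 lies outside the family as chosen and was one of the markers that named the pericyte-like cluster, so its level is no finding. It had 20.7 UMIs per 10,000 there and gave 98.0% of the UMIs of the pair, against 48.5% in smooth muscle-like cells, 1.1% in microglia-like cells and less in the others of the 8 classes. Cox4i2 was among the genes used for clustering, and the 70 cells and their values were the same when the members were left out of it. At a Leiden resolution of 0.5 the smooth muscle-like cells joined this class, and Cox4i2 then gave 57.4% of Cox4 UMIs and the log2 ratio of Ndufa4 was -1.61 in place of -3.54. That log2 ratio was -2.67 with cells thinned to 1000 UMIs and -2.30 with a pseudocount of 1.

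**Figure D3:**
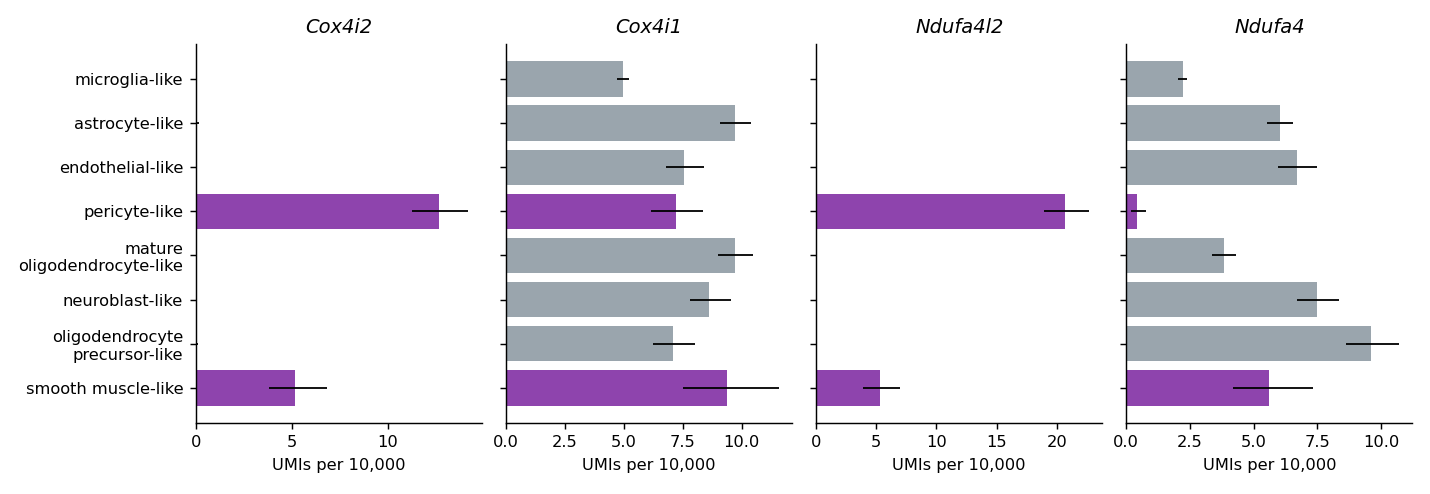
Level of Cox4i2, Cox4i1, Ndufa4l2 and Ndufa4 in 8 cell classes of the young library, in UMIs per 10,000, with exact Poisson 95% intervals; the 2 mural classes are in purple. Cox4i2 is seen in both mural classes, Cox4i1 in all classes, and Ndufa4 is lowest in pericyte-like cells, at 0.43.

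The shift within the Cox7a family was given above, and the other sets of complex IV kept to their general forms. The general forms Cox6a1 and Cox8a gave at least 96.9% of the UMIs of their pairs with Cox6a2 and Cox8b in each of the 6 classes, and Cox7b at least 98.5% against Cox7b2. Cox6b1 gave 90.6% of its pair in astrocyte-like cells, the lowest, and 99.5% in microglia-like cells. Cox7a1, the heart and muscle form, was past 2-fold in pericyte-like cells on 5 UMIs of 23 in the 6 classes, without which it would not have passed the filter, and Cox6b2 on 8 UMIs. Cox8a, the most abundant nuclear complex IV member by mean level (8.38), had 12.9 in pericyte-like and 12.4 in astrocyte-like cells, and its lowest level, 4.71, in microglia-like cells. The single-form subunits Cox5a, Cox5b and Cox6c had 1.18, 1.59 and 2.21 in microglia-like cells, against 2.08 to 4.08, 3.27 to 4.48 and 5.80 to 7.88 in the other 5 classes.

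The genes Atp5g1, Atp5g2 and Atp5g3 encode the same mature ring protein of complex V, and their mix differed by class. Atp5g2 gave 55.5% of their UMIs in microglia-like cells and 36.4% in astrocyte-like cells, the lowest. Atp5g3 gave 35.3% in astrocyte-like and 34.1% in pericyte-like cells, against 17.1% in mature oligodendrocyte-like and 17.2% in microglia-like cells. Atp5g2 had 5.62 UMIs per 10,000 in neuroblast-like cells against 2.70 to 3.23 in the other 5 classes, and oligodendrocyte precursor-like cells had 4.82. The complex V member with the highest mean level was Atp5b, the catalytic beta subunit, between 2.83 in microglia-like and 9.81 in pericyte-like cells. In complex III this was Uqcrh (mean 4.34) with Uqcrfs1, the Rieske iron-sulfur protein, as the lowest (1.35), and in complex I Ndufa13 (4.07). Among the assembly factors it was Ndufaf8 (0.60), with Ndufaf6 as the lowest (0.09).

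The 13 mitochondrially encoded genes were led by mt-Atp6, mt-Co3, mt-Co2, mt-Co1 and mt-Cytb, with means over the 6 classes of 178, 151, 107, 90.3 and 87.2 UMIs per 10,000. The complex I genes followed, with 56.2 for mt-Nd4, 55.4 for mt-Nd2, 35.2 for mt-Nd1, 25.3 for mt-Nd3, 7.37 for mt-Nd5 and 5.14 for mt-Nd4l. The lowest were mt-Atp8 (1.84) and mt-Nd6 (0.82), which alone is encoded on the light strand. A UMI marks 1 transcript end, so levels were not scaled by length, and the order of genes also rests on how each end is primed.

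Mature oligodendrocyte-like cells had the highest level of 10 of these 13 genes, against 11.4% of all tested genes. Microglia-like cells had the lowest of 9, against 26.5% of all tested genes. The genes of complexes IV and V gave most of it: mt-Co1 had 138 UMIs per 10,000 there against 65.6 to 88.7 in the other 5 classes, and mt-Atp6 had 240 against 106 to 195. The pattern did not extend to mt-Nd5, where 7.61 in mature oligodendrocyte-like cells lay between 6.51 and 7.96, nor to mt-Nd4, with 63.9 against 70.9 in astrocyte-like cells, nor to mt-Nd2. mt-Nd2 was also highest in astrocyte-like cells, at 80.6 against 40.1 in neuroblast-like cells, the lowest, and 62.7 in endothelial-like cells, the nearest. Within the mitochondrial UMIs alone mt-Nd2 gave 9.08% in astrocyte-like and 4.99% in mature oligodendrocyte-like cells. mt-Nd2 and mt-Nd4 were among the genes used for clustering.

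Over the 6 classes, the nuclear members most like the mitochondrial sum were Ndufb8 (r = 0.93), Ndufb4 (0.92) and Atp5h (0.90), and the 2 sums had r = 0.71. The member least like Cox4i2 was Ndufa4 (-0.89). These are descriptions over 6 points whose libraries and depths are shared.

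Lists of other mitochondrial genes, outside the families chosen by name, were counted in the same way. The share to set beside them is the 12.4% of all genes that were at least 2-fold lower in microglia-like cells. Cytochrome c1 is a subunit of complex III, but its name lies outside those families and it is in no complex III sum above. Of 9 genes of electron carriers, 3 were at least 2-fold lower there (cytochrome c1, Cyc1; the glycerol phosphate shuttle enzyme Gpd2; and Coq7 of coenzyme Q synthesis) and 0 higher, with a median log2 ratio of -0.79. Of 16 genes of the citric acid cycle 3 were lower (Fh1, Mdh2 and Pdha1) and 1 higher (Suclg2, median -0.65), and of 77 tested genes of the mitochondrial ribosome 8 were lower and 0 higher (-0.54), a count no larger in share than that of all genes. The carrier list split: the ADP/ATP carrier Slc25a4 and the pores Vdac1 and Vdac3 were lower, and the other ADP/ATP carrier Slc25a5 and the uncoupling protein relative Ucp2 higher. The 17 genes that copy and express mitochondrial DNA had a median of -0.11 and the 8 tested biogenesis regulators 0.10, both nearer to the median of all genes (-0.20) or above it. Assembly factors of complex IV had -0.37 with 0 of 17 lower. A list of other assembly and regulation genes, which also held Ndufa4l2, had -0.37 with 1 of 22 lower.

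In astrocyte-like cells 5 of the 16 citric acid cycle genes were at least 2-fold higher, with citrate synthase (Cs) and Pdha1 of the pyruvate dehydrogenase complex among them (median 0.70, all genes 0.17), as were 3 of 9 electron carrier genes (Etfb, Gpd2 and Coq9, median 0.96), beside 17.7% of all genes. The nuclear members themselves had a median of 0.27 in that class. In neuroblast-like cells 5 of 77 mitochondrial ribosome genes were higher and 0 lower (median 0.36, all genes 0.20), a smaller share than the 17.2% of all genes that were higher there.

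The astrocyte-like class was made of 2 clusters, and the nuclear members differed between them by more than the mitochondrially encoded genes did. This comparison was chosen after the values were seen, and the genes named for it likewise. The smaller cluster, of 24 cells, was led by Mt3, Aldoc, Mt1, Hopx and Gstm5, and the larger, of 280 cells, by Slc1a2, Clu and Dclk1. Nuclear members made up 5.68% of UMIs in the smaller cluster (5.51 to 5.86) and 2.30% in the larger (2.27 to 2.33). Mitochondrially encoded genes made up 9.07% (8.86 to 9.29) and 8.86% (8.80 to 8.92) of summed UMIs, in which deeper cells weigh more, while the median cell had 9.68% in the smaller and 6.96% in the larger cluster.

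Of the 87 tested nuclear members 62 were at least 2-fold higher in the smaller cluster, against 9.40% of all genes, and 2 were lower, against 30.5%. In the old library, whose cells are mostly the same, 55 were higher and 2 lower. Cox8a had 32.1 UMIs per 10,000 in the smaller and 10.9 in the larger cluster, Ndufb6 4.01 and 0.75, and Sdhc 3.12 and 0.85. The 13 mitochondrially encoded genes had log2 ratios between -0.24 and 0.25. Ndufc2, the leading astrocyte-like member, had 12.2 and 7.52, so its high level was also present in the larger cluster. Cox7a2l, the low astrocyte-like member, had 3.42 and 1.09, so its low level per 10,000 UMIs was not shared by the smaller cluster. Its log2 ratio of 1.57 stood beside a median of 1.21 for the nuclear members. Its relative Cox7a2 had 9.36 and 3.82, so Cox7a2l lay below Cox7a2 in both clusters.

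Cytosolic ribosomal protein genes moved the same way, with 6.11% of UMIs in the smaller and 3.09% in the larger cluster, and 36 of 81 at least 2-fold higher. Mitochondrial ribosome genes had a median log2 ratio of 0.84 with 29 of 77 higher, beside a median of -0.44 for all genes. The genes that express mitochondrial DNA had -0.50, close to that of all genes, with 0 of 17 higher and 3 lower. Median depths were 2647 UMIs in the smaller and 1857 in the larger cluster, and no cell of the smaller cluster was called a doublet. All 24 cells stayed together when the members were left out of the clustering. The clusters were drawn from these cells' own genes, so the difference is a description and was not tested.

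**Figure D4:**
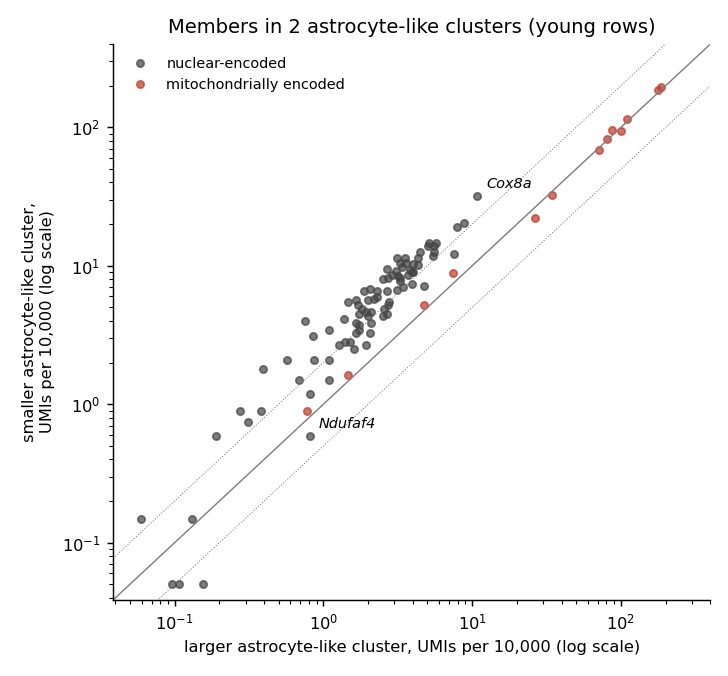
Level of each tested member in the smaller (vertical) against the larger astrocyte-like cluster (horizontal) of the young library, in UMIs per 10,000 on log axes, with the line of equality and dotted lines at 2-fold. Values under 0.05 are drawn at 0.05. Most nuclear-encoded members (grey) lie above the upper dotted line, as Cox8a at 32.1 and 10.9, and the mitochondrially encoded members (red) lie close to the line of equality.

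In the low-mitochondrial cells the counted UMIs of the chain had another composition. The largest cluster of these cells was led by Rpl39l, Rpl9-ps6, Rpl13a-ps1 and Gm11361, and what lies behind their counts was not tested. In the young library their mitochondrially encoded genes had 9.08 UMIs per 10,000 against 712 in the 6 classes pooled, a ratio of 0.0128. Their nuclear members summed to 201 against 170 UMIs per 10,000, a ratio of 1.18 (1.17 to 1.19), or 0.976 in the old library. That sum joined members that were nearly absent with others at several times the level of the 6 classes. Of the 87 tested, 40 were at least 2-fold lower, against 66.8% of all genes, and 20 at least 2-fold higher, against 10.9%. A ratio under 0.05 was found for 29 members in the young and 15 in the old library.

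Subunits of 1 complex were found at both ends. Genes named here were chosen after their values were seen. Ndufa5 of complex I had 0.00512 UMIs per 10,000 in the low-mitochondrial cells against 1.53 in the 6 classes, from 5 UMIs in 1315 cells, and Ndufs8 of the same complex 5.23 against 0.875. In complex V, Atp5j2 had 0.0133 against 2.98, Atp5g3 16.0 against 1.44, and Atp5g2 was 6.52 times higher (6.20 to 6.85). Complex I had 18 lower and 9 higher of 36, complex IV 7 and 2 of 15, complex V 6 and 5 of 15, and all 4 complex II genes were lower. Cox4i1, which had 4.24 against 6.93, was not called. The old library gave the same calls for all 40 lower members and for 17 of the 20 higher ones.

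The mitochondrial UMIs of these cells were also of another mix. mt-Nd5 gave 9.19% of them and mt-Nd6 1.65%, against at most 1.3% for mt-Nd5 and 0.115% for mt-Nd6 in each of the 6 classes. In the old library mt-Nd5 gave 1.92%, and the mitochondrial share was 0.695% of UMIs. For the 288 barcodes that were low-mitochondrial in both libraries that share was 0.689% in the old and 0.0929% in the young library, and higher in the old library for all 288. The same barcodes had 478999 UMIs in the old and 3164145 in the young library. What these cells are was not tested, and their UMIs are in no class sum above, although all cells were clustered jointly.

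**Figure D5:**
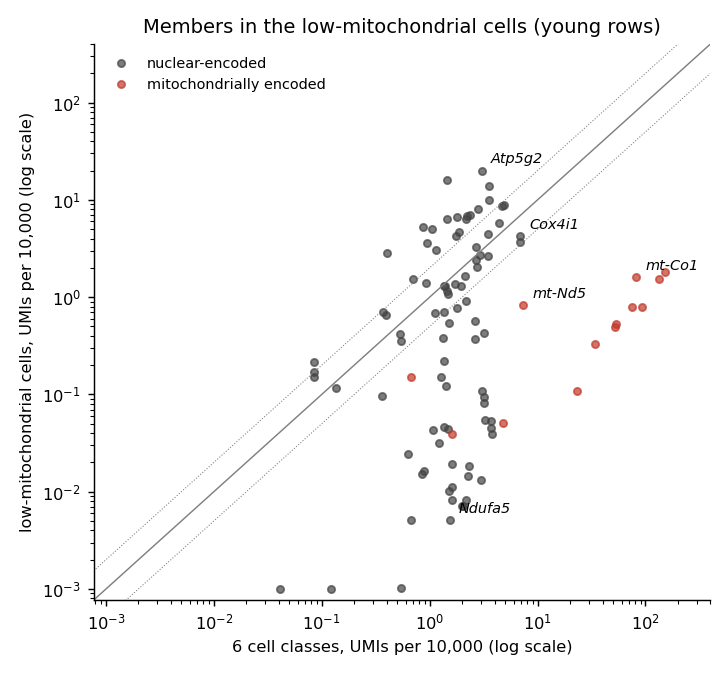
Level of each tested member in the low-mitochondrial cells (vertical) against the 6 cell classes pooled (horizontal) in the young library, in UMIs per 10,000 on log axes, with the line of equality and dotted lines at 2-fold. Members with under 0.001 are drawn at that level. The mitochondrially encoded members (red) all lie below the lower dotted line, and the nuclear-encoded members (grey) are spread over both sides of it, with Ndufa5 at 0.00512 and Atp5g3 at 16.0.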

How the data were processed

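Single-cell 3′ libraries of sorted dentate gyrus cells were processed with Cell Ranger 5.0.0 against mm10, per the submitters' processing notes. The deposited table holds natural log values, ln(1 + UMIs per 10,000), as read from the values themselves. Taking the exponential and scaling gave whole UMIs for 100% of values within 0.01, and these were summed. Members and gene lists were chosen with earlier results of these data known.

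Cells of both libraries were clustered with Scanpy 1.11.5 (2000 variable genes, 30 components, 15 neighbours, Leiden resolution 1) and named from marker lists. Clusters with a median mitochondrial share under 1% in both libraries were not named, a limit chosen with earlier results of these data known. Scrublet called 23 old and 37 young doublets, which were kept. Levels are UMIs per 10,000 of a class's summed UMIs. Shares have Clopper-Pearson, levels exact Poisson and ratios exact conditional 95% intervals, all for counting error only; UMIs of 1 cell are not independent. Folds were set against the median of the other 5 classes (pseudocount 0.1, at least 20 UMIs) and, with 1 library per age, no p-value was computed. The fold count was run on simulated data with planted changes larger than 2-fold, in genes well above the limit of 20 UMIs. That run does not cover 2-fold calls at low counts. Genes named are all mitochondrially encoded genes, isoform sets, complex II, the highest and lowest member of each complex and at most 5 members apart each way per class. Annotation was GENCODE M21 (GRCm38), and promoters were RefSeq's. The median depth per cell was 3856 UMIs in the old and 6663 in the young library.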

Additional observations from a re-analysis of the deposited data

How the results depend on the processing

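Microglia-like cells had the lowest nuclear level under every alternative run, while astrocyte-like and pericyte-like cells exchanged the highest place. The nuclear ratio of highest to lowest class was 2.34 without doublets, 2.40 at Leiden resolution 0.5 and 2.24 with cells thinned to 1000 UMIs, each with pericyte-like cells highest. It was 2.37 per nuclear-encoded UMI and 2.53 in cells of at least 2000 UMIs, a setting chosen after seeing the data. The mitochondrial ratio was 1.83 in the old library, 1.94 in cells of the same class in both libraries, 1.96 as a mean over cells, 2.02 per nuclear-encoded UMI, 1.96 when thinned, and 1.59 without members of shared 3′ ends. The ratio of nuclear to mitochondrial UMIs, highest to lowest class, was 1.67, neuroblast-like over mature oligodendrocyte-like cells. Pericyte-like cells became highest without doublets (1.73), as a mean over cells (1.56) and when thinned (1.54), each over mature oligodendrocyte-like cells. Without shared 3′ ends it was 1.92, neuroblast-like over microglia-like cells. The Cox4i2 share was 57.4% at resolution 0.5. With a pseudocount of 1, 9 members were apart in any class (18.1% of all genes) and 6 lower in microglia-like cells. The causes of these shifts were not tested. The log2 ratios of Ndufa4, Ndufc2, Uqcrb, Cox7a2l, Ndufaf8 and Cox4i2, each in the class where it was called, did not reverse. Those of the other named members were not followed under the alternatives. Of these log2 ratios and the class levels, over all alternatives, 159 values stayed within the limit set for them and 75 moved past it. Depth limits members of few UMIs, such as Ndufaf6 and Cox7a1. No paired analysis was possible because each age has 1 library and no replicate numbers.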
